A study of Drosophila melanogaster with 6 samples.

Results

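The basement membrane genes described here are *Col4a1*, *vkg*, *Pxn*, *LanA*, *LanB1*, *LanB2* and *SPARC* of *Drosophila melanogaster*. They were chosen by name, as the probe sets that the platform annotation assigns to exactly 1 of these genes. All 7 genes were found, each with 1 probe set (*Col4a1* 153378_at, *vkg* 143868_at, *Pxn* 152747_at, *LanA* 154252_at, *LanB1* 151856_at, *LanB2* 153856_at and *SPARC* 144147_at), among 10844 genes with a probe set of their own and 13966 probe sets in all. Head RNA was measured on 6 one-colour Affymetrix DrosGenome1 arrays. One group of flies, called tim-MJD here, carried Tim-gal4 and UAS-MJD (3 arrays), and the other was wild type (3 arrays). Tim-gal4 drives expression of the transgene in cells where the promoter of the clock gene *timeless* is active, and MJD is the polyglutamine protein of Machado-Joseph disease. The labels give a polyglutamine length of 78 for tim-MJD 1 and 2 and none for tim-MJD 3, and they name the strain CS for wild type 1 and 3. Flies of both groups were 2 to 4 days old and had been kept in light-dark cycles for 3 days before collection at Zeitgeber time 16. No group carried the driver alone or the transgene alone, so the effects of driver, transgene and strain cannot be told apart. No probe set used here names the transgene, so its level was not checked. The labels do not say whether the arrays of a group hold RNA from separate collections of flies, and p-values therefore cover only the spread between these samples, which may be technical.

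The basement membrane is a thin sheet of extracellular matrix under epithelia and around muscles, nerves and the brain. Laminin trimers bind receptors on the cell surface, and type IV collagen forms a second network that gives the sheet its strength. In flies much of the collagen IV of the body is made by fat body cells and hemocytes and reaches the tissues through the hemolymph. *Col4a1* and *vkg* encode the α1 and α2 chains of collagen IV, which assemble into 1 heterotrimer. *Pxn* encodes Peroxidasin, the peroxidase that crosslinks collagen IV. *LanA*, *LanB1* and *LanB2* encode an α, the β and the γ chain of laminin. *SPARC* encodes a collagen-binding glycoprotein that collagen IV needs for normal deposition. *Col4a1* and *vkg* lie next to each other on chromosome arm 2L, with 0 genes listed between them in the RefSeq gene table of the Release 6 assembly.

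The arrays differed in ways that bear on the comparison. The highest of 23 negative control probe sets, taken as the background level, read 31.9 to 39.1 on the tim-MJD arrays and 29.8 to 35.2 on the wild type arrays (deposited intensity). The middle probe set for 18S ribosomal RNA read 16.76 to 17.43 on the tim-MJD arrays, against 16.70 on wild type 3 and 12.70 or less on wild type 1 and 2 (log2 intensity). The 3' probe set of eIF-4a exceeded the 5' one by 2.57 to 3.18 log2 units in tim-MJD and by 3.15, 9.63 and 3.71 on wild type 1, 2 and 3. The 2 groups were scanned on different days, so group and day of scanning cannot be told apart. In fluidics modules 1 and 2, which wash and stain the arrays, there was 1 tim-MJD and 1 wild type array each. Head tissue was checked with the neuronal gene *elav* and the photoreceptor genes *Arr2* and *trp*, which lay above the negative controls on all 6 arrays.

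Both collagen IV genes read higher in tim-MJD heads, by about the same amount, while the laminin genes, *Pxn* and *SPARC* had overlapping groups. *Col4a1* averaged 10.48 ± 0.31 in tim-MJD and 9.43 ± 0.35 in wild type (log2 level, SD, n = 3 each) and *vkg* 9.97 ± 0.50 in tim-MJD and 9.05 ± 0.19 in wild type. Neither difference passed an adjusted p of 0.05 in limma, so 0 of 7 members were called, where 2.48% of the 8379 probe sets tested were called. At an unadjusted p under 0.05 there were 2 of 7, *Col4a1* and *vkg*, against 15.6% of all probe sets tested. All 7 passed the filter on low values, which left out the lowest 40% by mean over all arrays.

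*Col4a1* had deposited intensities of 1764, 1182 and 1085 on tim-MJD 1, 2 and 3, against 600.4, 899 and 729 on wild type 1, 2 and 3. Every tim-MJD array lay above every wild type array, and tim-MJD 1 lay well above the other two of its group. On the log2 scale after quantile normalization, the difference was 1.05 ± 0.24 (SE), with a 95% interval from 0.46 to 1.65 and an adjusted p of 0.0968 in limma. This is a 2.08-fold higher level, with an interval from 1.37-fold to 3.14-fold. The log2 difference was 0.83 with the values as deposited, 0.81 with median centring and 1.01 with cyclic loess normalization.

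*vkg* read 1494, 847 and 611 on tim-MJD 1, 2 and 3, against 574, 538 and 548 on wild type 1, 2 and 3. The groups again did not overlap, but tim-MJD 3 lay just above the wild type range. Its deposited intensity had an SD of 457 in tim-MJD and 18.4 in wild type (n = 3 each), so the spread of this gene came from the tim-MJD arrays. On the log2 scale it differed by 0.92 ± 0.27 (SE), with a 95% interval from 0.23 to 1.61 and an adjusted p of 0.184 in limma, a 1.89-fold higher level (1.18-fold to 3.04-fold). Without tim-MJD 1 the log2 difference was 0.62. It was 0.72 with the values as deposited (unadjusted p = 0.060 in limma), 0.69 with median centring (0.106) and 0.89 with cyclic loess normalization (0.024).

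Groups lay apart for 2 of 7 members, both higher in tim-MJD, and for 21.9% of all probe sets tested in one direction or the other. The exact permutation test of a single value gave p = 0.1 for both genes, which is the smallest that 3 against 3 arrays allow (two-sided). Of all probe sets tested 7.15% had a larger absolute change than *Col4a1* and 8.37% a larger one than *vkg*. The scale behind the deposited values is not stated. Read as antilogs to base e of log2 summaries, they give a fold of 1.67 for *Col4a1* and 1.57 for *vkg*, in the same direction.

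**Figure D1:**
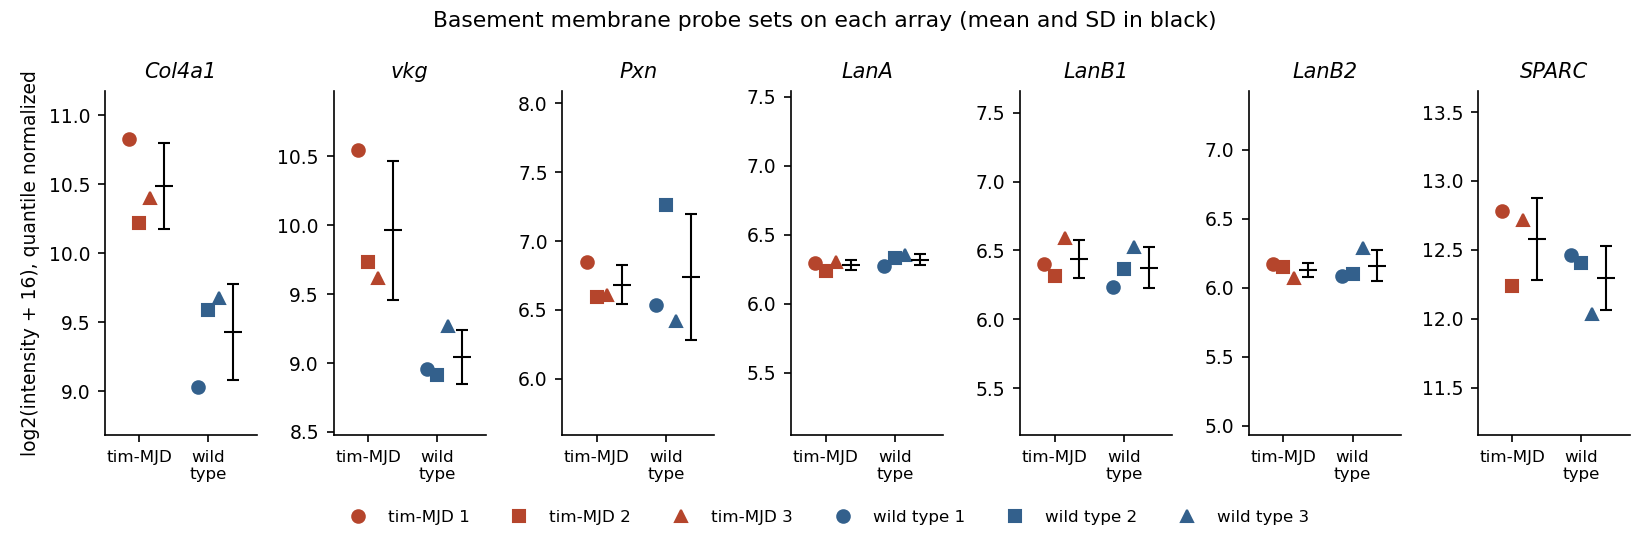
Level of each basement membrane probe set on each array, as log2(intensity + 16) after quantile normalization. Each panel spans the same number of log2 units, points are single arrays (tim-MJD red, wild type blue), and the black bar is the mean with its SD (n = 3). *Col4a1* and *vkg* show no overlap between groups, and the other 5 genes do.

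The size of the collagen IV difference varied with the arrays compared. Within fluidics module 1 (tim-MJD 1 against wild type 2) *Col4a1* differed by 1.24 and *vkg* by 1.63 log2 units. Within module 2 (tim-MJD 2 against wild type 3) *Col4a1* differed by 0.55 and *vkg* by 0.46. The pair in module 2 is also the one without a low 18S signal or a raised 3' to 5' difference. That pair holds tim-MJD 2, the array with the lowest summed signal of the fat body markers described below. With the 18S signal as a covariate the differences were 0.86 for *Col4a1* (adjusted p = 0.474 in limma) and 0.74 for *vkg* (0.649). With a covariate for the 3' to 5' difference they were 1.17 for *Col4a1* and 0.83 for *vkg*.

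The 2 chains lay near each other over the 6 arrays, though their order within each group differed. After normalization *Col4a1* was lowest on tim-MJD 2 and wild type 1 of their groups, and *vkg* on tim-MJD 3 and wild type 2. After each gene's mean over the 6 arrays was subtracted, 6 of 6872 other genes were nearer to *Col4a1* than *vkg* was, and 8 were nearer to *vkg* than *Col4a1* was. Nearness was measured as the Euclidean distance over the 6 arrays. The distance between the 2 chains was 0.58, where the median distance of 6866 genes outside the basement membrane set was 1.48 to *Col4a1* and 1.41 to *vkg*. The 5 genes nearest to *Col4a1* were *l(2)34Fc* (distance 0.49), *Ugt37D1* (0.52), *yps* (0.52), *cer* (0.53) and *bero* (0.55). Those nearest to *vkg* were *NtR* (0.33), *Usp2* (0.41) and *CG6912* (0.41). Of these 8 genes *l(2)34Fc* was called in limma (change 1.06, adjusted p = 0.0161). All of these profiles share the same 6 arrays, so array effects and the group difference both add to the likeness. The nearness of the chains is therefore not separate from the group difference given above for both. The mean-subtracted values of the 2 chains differed most on tim-MJD 3, with 0.44 for *Col4a1* and 0.11 for *vkg*, and on wild type 1, with -0.93 for *Col4a1* and -0.55 for *vkg*.

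**Figure D2:**
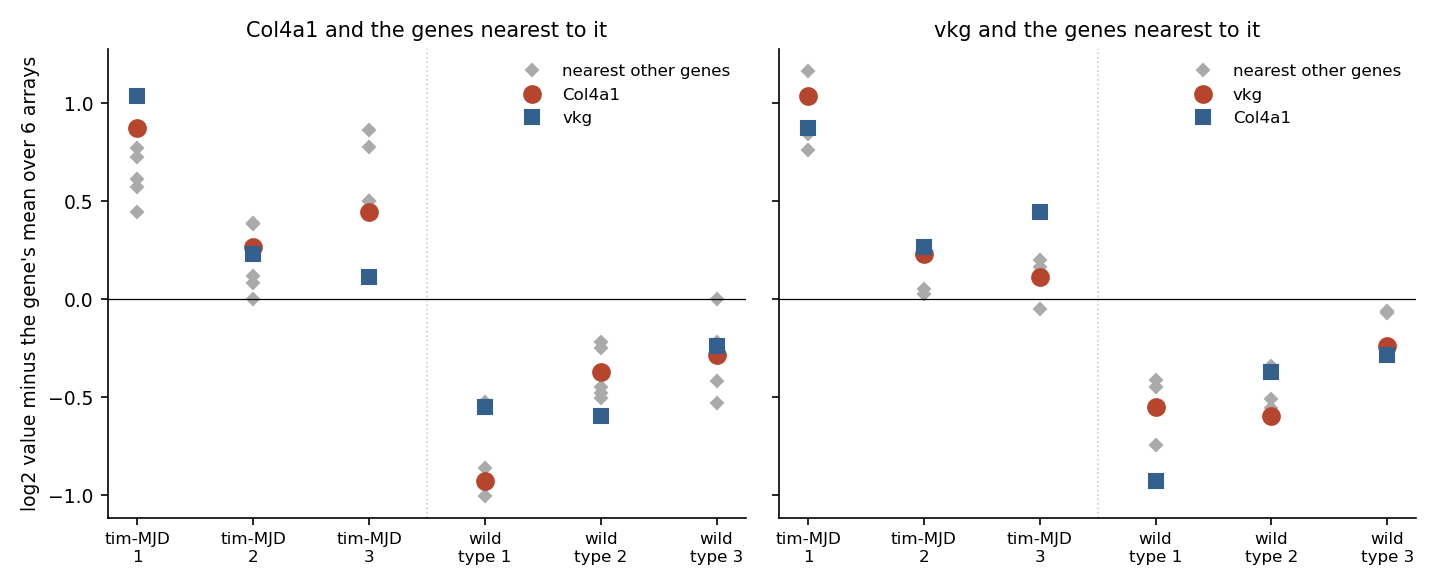
Log2 values of *Col4a1* (left) and *vkg* (right) on the 6 arrays after subtraction of each gene's mean, with the other collagen IV chain and the nearest genes of other kinds (grey diamonds). Both chains lie above 0 on all tim-MJD arrays and below 0 on all wild type arrays, with tim-MJD 1 highest.

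The probe set of *Pxn*, the collagen crosslinking enzyme, did not read higher in tim-MJD as those of the collagen chains did. It read 96.3, 79.6 and 79.9 on tim-MJD 1, 2 and 3, against 79.6, 152 and 70.9 on wild type 1, 2 and 3. The groups overlapped, and wild type 2 stood apart at the top. That array also had the raised 3' to 5' difference, whose part in this value was not tested for *Pxn* alone. Relative to the highest negative control of the same array, *Pxn* read 2.04 to 2.98 times as high in tim-MJD and 2.01 to 4.65 times in wild type. Like the laminin genes below, it is a dim probe set, for which a true change is understated. On the log2 scale *Pxn* differed by -0.06 ± 0.24 (SE, 95% interval -0.67 to 0.55, adjusted p = 0.960 in limma). It was 0.20 without wild type 2 (adjusted p = 0.574), so its direction rests on that array. The deposited values for tim-MJD 2 and wild type 1 are identical, as are values of at least 2 arrays in 1.72% of all probe sets.

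The laminin genes read close to background and differed little. *LanA* read 60.4, 58.6 and 64.1 on tim-MJD 1, 2 and 3, against 62.0, 64.5 and 67.5 on wild type 1, 2 and 3. *LanB1* read 66.5, 62.6 and 78.8 on the tim-MJD arrays, against 59.5, 66.6 and 75.9 on the wild type arrays. *LanB2* read 54.2, 53.6 and 54.2 on the tim-MJD arrays, against 50.9, 51.9 and 64 on the wild type arrays. The groups overlapped for each of the 3 chains. Relative to the highest negative control of the same array, *LanA* read 1.64 to 1.87 times as high in tim-MJD and 1.92 to 2.08 times in wild type. *LanB1* read 1.96 to 2.06 times as high in tim-MJD and 2.00 to 2.16 times in wild type, and *LanB2* 1.39 to 1.68 times in tim-MJD and 1.59 to 1.82 times in wild type.

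Between the groups *LanA* differed by -0.04 ± 0.05 log2 units (SE), with a 95% interval from -0.18 to 0.10 (adjusted p = 0.805 in limma). *LanB1* differed by 0.06 (95% interval -0.22 to 0.34, adjusted p = 0.876) and *LanB2* by -0.03 (-0.23 to 0.17, adjusted p = 0.926). These intervals do not reach the estimates for *Col4a1* and *vkg*, though that of *LanB1* overlaps the interval of *vkg*. Since the probe sets lie near background, where the 16 added to each value weighs and a true change is understated, they do not bound the change of the transcripts equally tightly. *LanB1* was highest on tim-MJD 3 and wild type 3, the arrays with the highest negative control of their group.

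*SPARC* read 7097, 4875 and 5599 on tim-MJD 1, 2 and 3, against 6606, 6047 and 3695 on wild type 1, 2 and 3. The groups overlapped, with tim-MJD 2 below wild type 1 and 2, and wild type 3 lowest of all 6 arrays. The log2 difference was 0.28 ± 0.19 (SE), with a 95% interval from -0.20 to 0.76 (adjusted p = 0.592 in limma). Within fluidics modules 1 and 2 it was 0.38 and 0.21. A change as large as that estimated for *Col4a1* lies outside this interval, and no change lies inside it. The interval overlaps those of *Col4a1* and *vkg*, and a difference between *SPARC* and the collagen genes was not tested. Over 22 alternatives the *SPARC* difference ranged from 0.11 to 0.54.

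Of all probe sets tested 49.0% had a positive difference. Among the 7 genes, 4 had a positive and 3 a negative difference, with a median of 0.06 against -0.0026 over all probe sets tested. An absolute difference under 0.2 log2 units was found for 4 of them, against 62.0% of all probe sets tested. The 3 laminin chains lay nearest to each other over the arrays (distances 0.16 to 0.30), which reflects their small spread, and the 2 collagen chains came next. *Pxn* lay farther from *Col4a1* (1.55) and *vkg* (1.56) than any other member did.

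**Figure D3:**
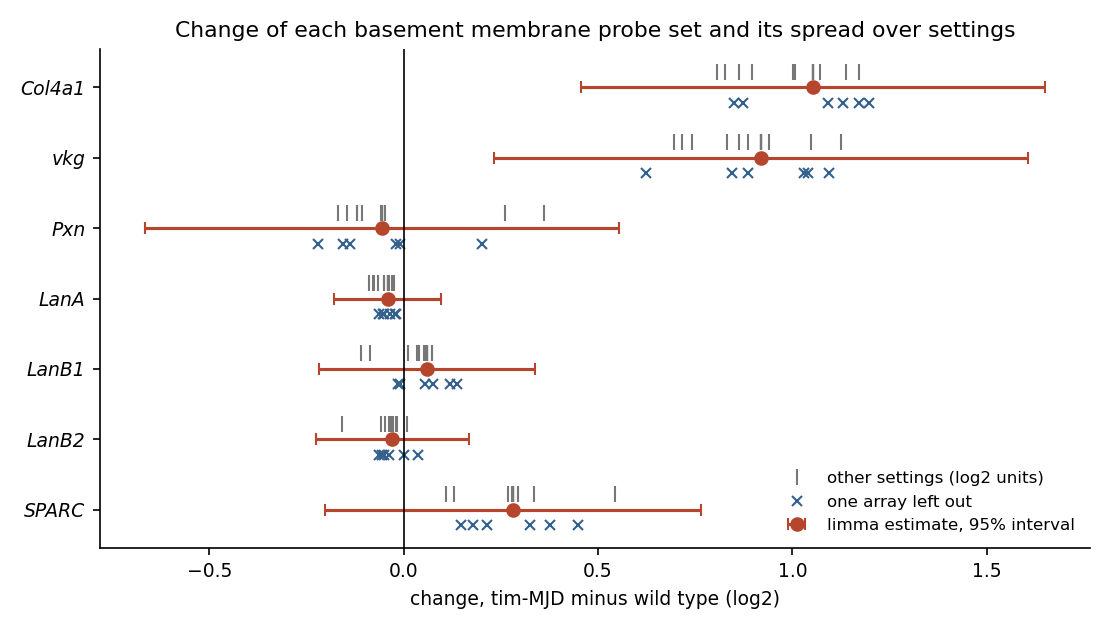
Difference of each basement membrane probe set between tim-MJD and wild type (log2, x axis) with its 95% interval in limma (red, n = 3 against 3 arrays), the value with 1 array left out (blue crosses) and under the other settings in log2 units (grey ticks). *Col4a1* and *vkg* stay above 0 in all of them, and *Pxn*, *LanB1* and *LanB2* lie on both sides of 0.

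Other genes of the basement membrane and its cell contacts came from 4 lists of 49 genes, of which 44 had a probe set of their own and 31 passed the filter. Where a gene had several probe sets, the brightest was used. Of the 31 tested, 3 rose, 0 fell and 28 did not pass in limma (9 had an unadjusted p under 0.05), against 2.47% called of all 6873 genes tested. An unadjusted p under 0.05 was found for 15.6% of all probe sets tested. The genes that rose were *Tig*, *Sec31* and *Timp*. Other genes of these lists are named for their place in the matrix after their values were seen.

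Of 8 tested matrix components outside the set, *Tig* rose and 7 did not pass, with a list median of -0.0028 against -0.0046 over all genes tested. *Tig* encodes Tiggrin, a matrix ligand of the integrin that *mys* and *if* encode. It read 4169, 5846 and 1559.9 on tim-MJD 1, 2 and 3, against 258, 160.3 and 211 on wild type 1, 2 and 3. All tim-MJD arrays lay far above all wild type arrays. The log2 difference was 4.10 ± 0.44 (SE), or 17.1-fold, with an adjusted p of 0.0157 in limma. Read as antilogs to base e, the deposited values give 7.55-fold for *Tig*, 1.44-fold for *Sec31* and 1.57-fold for *Timp*, all in the same direction. It was 4.74 and 4.57 within fluidics modules 1 and 2. Leaving out wild type 1, 2 or 3 ended the call, with adjusted p of 0.0709, 0.0584 and 0.0542 in that order in limma, while the difference stayed between 3.77 and 4.56 with any 1 array left out.

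*trol*, which encodes the heparan sulphate proteoglycan perlecan of the basement membrane, read 316, 350.0 and 189 in tim-MJD, against 138, 198 and 185 in wild type. Its log2 difference after normalization was 0.78 (adjusted p = 0.148), with no overlap after normalization and an overlap of the deposited values. *Ndg*, which encodes nidogen, the linker between laminin and collagen IV, differed by -0.08 (adjusted p = 0.934). It read 37.2, 38.1 and 42.3 in tim-MJD, against 66.4, 36.8 and 30.6 in wild type. These values are close to the highest negative control, and below it on wild type 3, so a change could be missed. *Glt*, which encodes the basement membrane protein glutactin, differed by -0.99 (adjusted p = 0.515), with tim-MJD 2 lowest and wild type 1 highest. *Mp*, a collagen of the type XV and XVIII family, differed by 0.02, and *Ppn*, which encodes papilin, by 0.25. A dimmer probe set of *Ppn* differed by -0.11, and the brighter one by 1.76 and -0.45 within fluidics modules 1 and 2. *Tsp*, which encodes thrombospondin, differed by -0.59 (adjusted p = 0.253). *wb*, which encodes the other laminin α chain, and *loh* did not pass the filter.

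Among genes for collagen modification and secretion, *Sec31* rose and 10 of 11 tested did not pass, with a list median of 0.02. *Sec31* encodes a coat subunit of the vesicles that leave the endoplasmic reticulum. It read 162, 202 and 151.5 on tim-MJD 1, 2 and 3, against 113, 125 and 98.0 on wild type 1, 2 and 3. The log2 difference was 0.68 ± 0.09 (SE), or 1.61-fold, with an adjusted p of 0.0276 in limma, and 0.48 and 0.90 within fluidics modules 1 and 2. It held without tim-MJD 1, but leaving out any other array ended the call, with a highest adjusted p of 0.0954 when wild type 1 was omitted.

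*Tango1*, whose protein is needed to load collagen IV into secretory vesicles, differed by 0.14 (adjusted p = 0.743). *Plod*, the lysyl hydroxylase of collagen IV, differed by 0.01 and the prolyl hydroxylase gene *PH4alphaEFB* by -0.05, both without a call. Both probe sets were dim, so a change could be missed. *PH4alphaEFB* read 47.1, 38.5 and 28.8 in tim-MJD, against 41.3, 41.2 and 35.4 in wild type, below the highest negative control on tim-MJD 3. A dimmer probe set of *PH4alphaEFB* differed by 0.08. *Pdi*, which encodes protein disulphide isomerase, a subunit of prolyl 4-hydroxylase, read 2219.8, 4717 and 1931 in tim-MJD, against 1695, 1375 and 1598 in wild type, a difference of 1.01 (adjusted p = 0.212). The lysyl oxidase gene *Loxl2* differed by -0.42 (adjusted p = 0.159). The genes *Sec24CD* and *Sec13*, for other coat subunits, differed by 0.45 and 0.03. *Rab10* of the same list differed by 0.01 in its brighter probe set and by 0.64 in the other (adjusted p = 0.0732 in limma).

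Of 11 tested genes for receptors and the adhesion complex, 0 were called in limma (2 at an unadjusted p below 0.05), with a list median of 0.20 and 7 of 11 positive. Of all genes tested 48.2% were positive, and 15.6% of all probe sets tested had an unadjusted p under 0.05. *Sdc*, which encodes the cell surface proteoglycan syndecan, read 3837, 4420 and 3461 in tim-MJD, against 2008, 2825 and 3159 in wild type, a difference of 0.78 (adjusted p = 0.240 in limma) with no overlap between groups. *scb*, the other gene with an unadjusted p under 0.05, was a dim probe set (46.4 to 69.5) that differed by 0.22 (adjusted p = 0.313 in limma). The largest difference of the list was that of *parvin*, 0.83 (adjusted p = 0.377 in limma), which lay below the highest negative control on wild type 2. *mys*, the main integrin β chain, differed by 0.78 (adjusted p = 0.468), with wild type 3 inside the tim-MJD range. *Dg*, which encodes the laminin receptor dystroglycan, differed by 0.20 and *Ilk*, which encodes integrin linked kinase, by -0.05. Both probe sets were dim, at 38.4 to 75.8 for *Dg* and 60.1 to 80.6 for *Ilk* over all arrays. *rhea*, which encodes talin, had 2 probe sets that disagreed. The brighter one differed by -0.42 and the other by 0.78, both without a call, and the brighter one was highest on wild type 2.

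*Timp*, which encodes the tissue inhibitor of metalloproteases, read 655, 733 and 544 on tim-MJD 1, 2 and 3, against 345, 419 and 395 on wild type 1, 2 and 3. The groups did not overlap. The log2 difference was 0.91 ± 0.13 (SE), or 1.88-fold, with an adjusted p of 0.0338 in limma, and 0.87 and 0.73 within fluidics modules 1 and 2. It held without wild type 3, but leaving out any other array ended the call, with a highest adjusted p of 0.104 when wild type 2 was omitted. *Timp* was the 1 gene of its list that passed the filter. The metalloprotease gene *Mmp2* read at or below the negative controls on all arrays, so its change was not detectable.

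**Figure D4:**
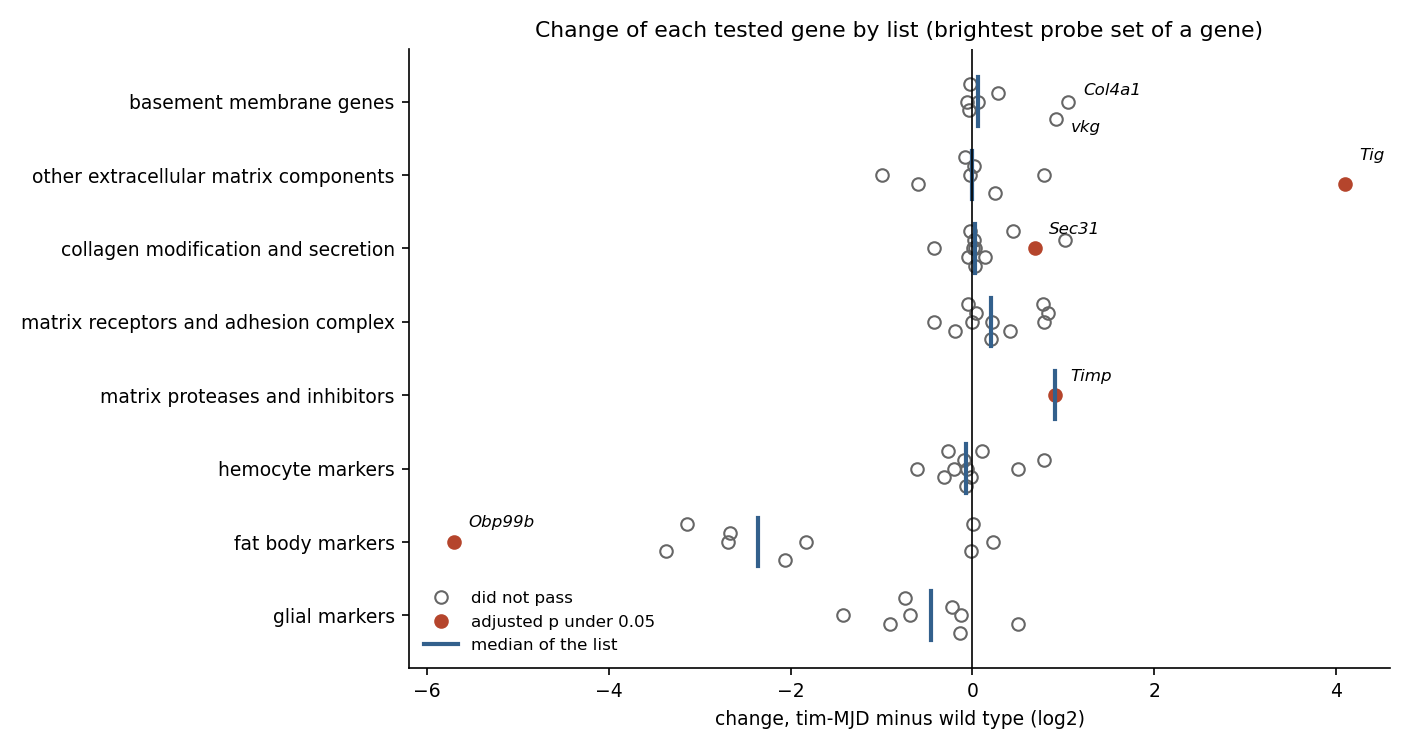
Difference between tim-MJD and wild type (log2, x axis) of each tested gene by list, each gene by its brightest probe set, with called genes filled in red and list medians in blue; vertical offsets within a list carry no value. *Tig*, *Sec31* and *Timp* are the called genes of the matrix lists, and most fat body and glial markers lie below 0.

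Markers of cells that make or border basement membrane were read beside these genes. In whole heads fewer cells of a type and less RNA per cell cannot be told apart. Of 10 fat body markers *Obp99b* fell (log2 difference -5.70, adjusted p = 0.0478 in limma) and 9 did not pass, while 8 of 10 were negative with a median of -2.36. Of all 6873 genes tested 2.47% were called and 48.2% had a positive difference. *Obp99b*, which encodes an odorant binding protein, read 8446, 794 and 3716 on tim-MJD 1, 2 and 3, against 222594, 106918 and 181101 on wild type 1, 2 and 3. The summed intensity of the 10 markers was 43412 to 2178620 in tim-MJD and 2248990 to 5407910 in wild type, without overlap. That sum was mostly yolk protein signal, since *Yp1*, *Yp2* and *Yp3* made up 88.0% to 99.3% of it in tim-MJD and 90.5% to 95.5% in wild type. The yolk protein genes were not called (adjusted p = 0.585 to 0.630 in limma) and were lowest on tim-MJD 2, where *Yp2* read 1019 against 378875 and 397724 on tim-MJD 1 and 3, and 302343 to 1117980 in wild type. The sample details used here do not give the sex of the flies. Its part in the values of the fat body markers, *Obp99b* and the yolk protein genes among them, was not tested. Without the yolk protein genes the other 7 markers summed to 5216 to 31440.4 in tim-MJD and 148158 to 352463 in wild type, again without overlap and lowest on tim-MJD 2. In wild type most of this smaller sum was *Obp99b* (222594 of 352463, 106918 of 148158 and 181101 of 213657 on wild type 1, 2 and 3). The smaller sum therefore largely repeats the difference of *Obp99b*, and a sum without that gene was not compared. Without tim-MJD 2 the *Col4a1* difference was 1.20 and the *vkg* difference 1.04. The larval markers *Fbp1* and *Fbp2* read at or below the negative controls on all arrays. The *Obp99b* call ended under 14 of 22 alternatives, among them any of 4 arrays left out (highest adjusted p of 0.143 when wild type 1 was omitted), and its sign held in all of them.

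Of all genes tested 2.47% were called and 48.2% were positive, and 15.6% of all probe sets tested had an unadjusted p under 0.05. Of 11 hemocyte markers 0 passed in limma (2 had an unadjusted p under 0.05), and 8 were negative, with a median of -0.07. Their summed intensity was 669.6 to 875 in tim-MJD and 711 to 898 in wild type, and *ush* read at or below the negative controls on all arrays. Both markers with an unadjusted p under 0.05 were lower in tim-MJD, without overlap of the groups. After normalization 1 marker, *PPO2*, was higher without overlap (difference 0.51, adjusted p = 0.382 in limma), though its deposited values overlapped. Groups lay apart in one direction or the other for 21.9% of all probe sets tested. *Sr-CI*, which encodes a scavenger receptor, read 111, 115 and 98.9 in tim-MJD, against 172, 189 and 202 in wild type (difference -0.61, adjusted p = 0.0823). *NimC1*, which encodes a phagocytosis receptor, read 44.5, 32.4 and 38.2 in tim-MJD, against 44.9, 50.1 and 51.8 in wild type (difference -0.27, adjusted p = 0.313). On tim-MJD 3 *NimC1* lay below the highest negative control (39.1). The marker with the largest difference upward was *Hml*, which encodes the hemocyte protein hemolectin, with 251, 303 and 107 in tim-MJD, against 91.6, 133 and 138 in wild type, which overlapped (difference 0.78, adjusted p = 0.400). Of 8 glial markers 0 passed in limma (5 had an unadjusted p under 0.05), and 7 were negative, with a median of -0.46. Their summed intensity was 3969 to 6651 in tim-MJD and 8371 to 20713 in wild type, without overlap. Most of that sum was 1 gene, *Gs2*, with 6018, 3307 and 3350 in tim-MJD, against 11470, 19367 and 7270 in wild type. The part of fat body, hemocyte or glial RNA in the collagen IV values was not tested.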

How the data were processed

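The deposited table holds 1 intensity for each probe set on 6 Affymetrix DrosGenome1 arrays, an array type given per the file headers. The authors' summary method, background correction and normalization of these intensities were not given in the sources used here. Between 56 and 75 values per array exceed 65535, the limit of a 16-bit scan, so the scale is unsettled. Of 14010 probe sets 44 array controls were left out. Gene names came from the platform annotation and were matched by gene identifier to a RefSeq gene table (12394 of 12443 probe sets with 1 gene).

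Intensities were put on the log2(value + 16) scale and quantile normalized between arrays, the lowest 40% by mean over all arrays was left out (8379 of 13966 kept), and tim-MJD was compared with wild type in limma 3.58.1 (R 4.3.3; lmFit and eBayes, two-sided, Benjamini-Hochberg adjustment over all probe sets tested, threshold 0.05). Fold changes refer to log2(value + 16) and understate those of dim probe sets. The procedure was tested on simulated data. Precision is limited by the number of arrays. No sequence was used, and coordinates served only to find the genes listed between *vkg* and *Col4a1*.

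The members, lists and settings were chosen with earlier results of these data known. Named are all members, up to 3 called genes per list with the largest change, the 5 genes nearest to *Col4a1* and the 3 nearest to each other member; those nearest to *Pxn*, *SPARC* and the laminin genes are not printed because their distances mostly reflect a small spread. Markers of muscle, neurons and photoreceptors were read as well, with 0 of 4, 0 of 4 and 0 of 2 tested genes called (1, 2 and 0 at an unadjusted p under 0.05) and medians of -0.14, 0.85 and -0.10. Over all genes tested 2.47% were called, and 15.6% of all probe sets tested had an unadjusted p under 0.05. Of 107 list names 16 had no single-gene probe set. Python 3.11.15, pandas 2.3.3 and matplotlib 3.10.9 were used for tables and figures.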

Additional observations from a re-analysis of the deposited data

How the results depend on the processing

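None of the 7 basement membrane genes was called in limma or in the plain two-sample test under any of 22 alternatives (0 to 3 at an unadjusted p under 0.05). *Col4a1* stayed positive in all of them (adjusted p 0.0580 to 0.474), as did *vkg* (0.114 to 0.649) and *SPARC*, and *LanA* stayed negative. Reversed signs, with the cause not tested, were 0.36 for *Pxn* and -0.11 for *LanB1* with the 18S covariate, 0.26 for *Pxn* with the 3' to 5' covariate, -0.086 for *LanB1* with the module block and 0.0077 for *LanB2* with array weights. With each array left out in turn *Pxn* ranged from -0.22 to 0.20, *LanB1* from -0.016 to 0.14 and *LanB2* from -0.064 to 0.037. Calls over all probe sets numbered 208, and 122 with median centring, 102 without the filter, 387 with 60% left out, 84 with the replicate block, 37 with the 18S covariate, 101 with the 3' to 5' covariate, 42 with the plain test, 0 in limma with the module block, where 980 had an unadjusted p under 0.05, and 88 to 200 with each array left out. Left out singly, wild type 1 gave 88, wild type 2 gave 117 and tim-MJD 3 gave 112. The 3 called genes of the related lists became 1 with the values as deposited, median centring, no filter or a variance trend, 0 with the replicate block, the module block, the 18S or 3' to 5' covariate and the plain test (5 to 9 at an unadjusted p under 0.05), and 0 to 2 with each array left out. Singly, the call ended under 8 of 22 alternatives for *Tig* (adjusted p 0.00686 to 0.242), 15 for *Sec31* (0.0273 to 0.401), 14 for *Timp* (0.0220 to 0.276) and 14 for *Obp99b* (0.0216 to 0.412). For *Obp99b* these were a pseudocount of 64, median centring, no filter, the robust fit, array weights, both blocks, both covariates, the plain test and 4 arrays left out, and no sign reversed. Settings of the related lists and of *Obp99b* beyond scaling, filter and arrays left out were chosen after seeing the data. The split of calls was 129 higher and 79 lower, and 123 higher and 144 lower with the values as deposited, 74 and 28 without the filter and 31 and 11 with the plain test. Arrays with the same replicate number correlated at 0.05 to 0.30 in their deviations, 2 of 3 pairs over 0.1, and 5 of 6 arrays correlated best with their own number. These values do not exclude pairing by number, which the main comparison did not use. With the replicate block the calls of *Tig*, *Sec31*, *Timp* and *Obp99b* all ended (adjusted p = 0.0820, 0.0630, 0.0897 and 0.0617 in that order in limma). Each member has 1 probe set, so choosing another was not possible. Dim probe sets, here *Pxn* and the laminin genes among the members, limit what can be detected. The same holds for dim related genes such as *Ndg* and *PH4alphaEFB*.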
